A study of Homo sapiens with 9 samples.

Results

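The 10 genes described here are markers by which a lung adenocarcinoma is recognized as lung-derived and epithelial: the lineage factors NKX2-1, FOXA1 and FOXA2, the lung products SFTPB, NAPSA and MUC1, and the simple epithelial keratins KRT7, KRT8, KRT18 and KRT19. They were matched by gene symbol, and 10 of 10 were found among the 61544 genes counted in each library. The matching used no measured value, though the members were chosen with earlier results of these data known. All 10 also passed the filter on low counts, which left 18653 genes for testing.

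H1975 is a human lung adenocarcinoma line. In all 3 groups, endogenous GRP78, the endoplasmic reticulum chaperone encoded by HSPA5, was first depleted for 24 h by si78, whose target lies in the 3′ untranslated region of the HSPA5 transcript. The cells then received a plasmid for 48 h, which was empty pcDNA3 (vector), FLAG-tagged GRP78, F-78(WT), or the same protein with alanines in place of lysines of its nuclear localization signal, F-78(NLS Mut). The labels call these groups Vector, WT and NLS Mut, and the short names are used from here. Total RNA of each group was sequenced in 3 libraries. The comparison of WT with NLS Mut asks what the nuclear localization signal of GRP78 changes in transcription, and both comparisons with vector ask what returning either protein changes. Since the vector cells also carried si78, and H1975 cells that had no si78 are not analysed here, no group stands for untreated H1975. Transfection was transient in a single line, and the labels do not say whether the libraries came from separate cultures, so p-values measure only the spread between these libraries.

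NKX2-1 is a homeodomain factor that directs development of the lung epithelium and switches on surfactant genes in alveolar type II cells. FOXA1 and FOXA2 are forkhead factors that open chromatin for it and for other regulators of foregut epithelia. Keratins form filaments as pairs of a type II and a type I chain, and KRT8 with KRT18 is the pair of simple epithelia, which KRT7 and KRT19 join in ducts, airways and most lung adenocarcinomas.

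The libraries held 17671055 to 27476298 reads counted on genes, and 3 counts, taken as the limit of detection, equal 0.109 to 0.170 CPM (the depth-scaled count of a gene, after TMM). HSPA5 was at 378 ± 17.1 CPM with vector (SD, n = 3), 5664 ± 572 with WT (SD, n = 3) and 4961 ± 195 with NLS Mut (SD, n = 3). HSPA5 RNA was thus higher in both groups given a GRP78 plasmid. Between those 2 groups it was 14.2% higher with WT, without passing the test. The log2 fold change was 0.19 (95% interval 0.09 to 0.30, adjusted p = 0.079, edgeR's quasi-likelihood test). These gene counts do not tell WT from NLS Mut transcripts. The vector libraries were not alike. Per 10 percentage points of GC content, the log2 ratio to the mean library changed by 0.11 and 0.12 in vector replicates 2 and 3, by -0.05 in vector replicate 1 and by -0.07 to 0.03 in the WT and NLS Mut libraries. In this trend replicate 1 thus lay among the other groups, and replicates 2 and 3 lay outside all other libraries. The 10 members have 54.6% to 61.7% GC over their exons, and their values against vector are therefore given with and without vector replicate 1 and after a correction for GC content. Without replicate 1, they rest on replicates 2 and 3 alone. Of all genes tested, 56 were higher and 38 lower in WT than in NLS Mut with edgeR's quasi-likelihood test at an adjusted p-value under 0.05, and 233 higher and 248 lower after that correction, which also covers gene length. Against vector, 40 were higher and 64 lower with WT (120 and 81 after the correction, 26 and 115 with scaling by library size alone). With NLS Mut, 55 were higher and 93 lower (163 and 100 after the correction, 39 and 133 with library size alone).

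The study linked nuclear GRP78 to ID2, a protein that keeps basic helix-loop-helix factors from E-boxes, so the E-box (CANNTG, the same letters on both strands) was looked for from 250 bases before to 50 bases after the RefSeq starts of the members. The promoters of NKX2-1, FOXA1, SFTPB, NAPSA, MUC1 and KRT8 could be matched, and those of FOXA2, KRT7, KRT18 and KRT19 were not. These 6 genes have 10 such windows, of which 9 held an E-box, as 68.7% of 35116 promoters of that length do. The window without one belongs to NKX2-1, whose other window held one. The windows of MUC1 (chr1:155192866-155193165 and chr1:155192860-155193159) overlap almost wholly and hold the same 3 E-boxes. The 10 windows are thus not separate promoters, and their share cannot be weighed against that of all promoters. TGTTTAC, the core bound by forkhead factors, was searched on both strands. It occurred in 1 of the 10 windows, upstream of a start of NKX2-1, and in 3.42% of all promoters. Stretches of 30 bases of the reference genome (RefSeq, GRCh38.p14, minus strand) are shown for the 3 lung products, as the group that holds the member lowered by NLS Mut, and for KRT8, the keratin with a matched promoter. Capitals mark the E-boxes. The stretches of MUC1 (chr1:155192980-155193009), SFTPB (chr2:85668897-85668926) and NAPSA (chr19:50369362-50369391) lie outside the gene in GENCODE release 29, and that of KRT8 (chr12:52926574-52926603) lies in an intron.
MUC1: gcggggttttgtCACCTGtCACCTGctccg
SFTPB: tgagagcccctgCAGCTGcagaggacagtt
NAPSA: gccaggagcaacCACGTGacagattcccac
KRT8: acatgcccacagCAAGTGtaacccagccca
MUC1 thus has a pair of identical E-boxes set 1 base apart. These matches describe letters in the reference genome, and binding was not measured.

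In identity, H1975 was a line of high simple keratins, intermediate MUC1 and NKX2-1, and low FOXA2 and NAPSA, with FOXA1 and SFTPB near the limit of detection. To compare genes with each other, counts were divided by exonic length and brought to the same total in each library (TPM). On that scale the mean level over the 9 libraries was 1288 ± 101 for KRT19 (SD, n = 9), 1173 ± 85.3 for KRT7, 854 ± 57.1 for KRT8 and 600 ± 30.3 for KRT18. The 4 keratins ranked 50, 55, 84 and 133 in level among 19853 protein-coding genes. MUC1 followed at 69.0 ± 8.74 TPM (SD, n = 9), NKX2-1 at 31.9 ± 4.07 and FOXA2 at 8.62 ± 1.60. NAPSA was at 2.12 ± 0.756 TPM (SD, n = 9), FOXA1 at 0.588 ± 0.264 and SFTPB at 0.357 ± 0.329. Over the libraries, the range of KRT19 (1138 to 1409 TPM) overlapped that of KRT7 (1090 to 1311), and the range of FOXA1 (0.246 to 1.12) overlapped those of NAPSA (from 1.09) and SFTPB (to 0.983). The other neighbours in this order had separate ranges. The order among the keratins depends on the length used. With the median length of the protein-coding transcripts in its place, chosen after seeing the data, the levels were 2411 TPM for KRT7, 1688 for KRT8, 1170 for KRT19 and 668 for KRT18. MUC1 then stood at 185 TPM and NKX2-1 at 24.1, and the order of the other members stayed the same.

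**Figure D1:**
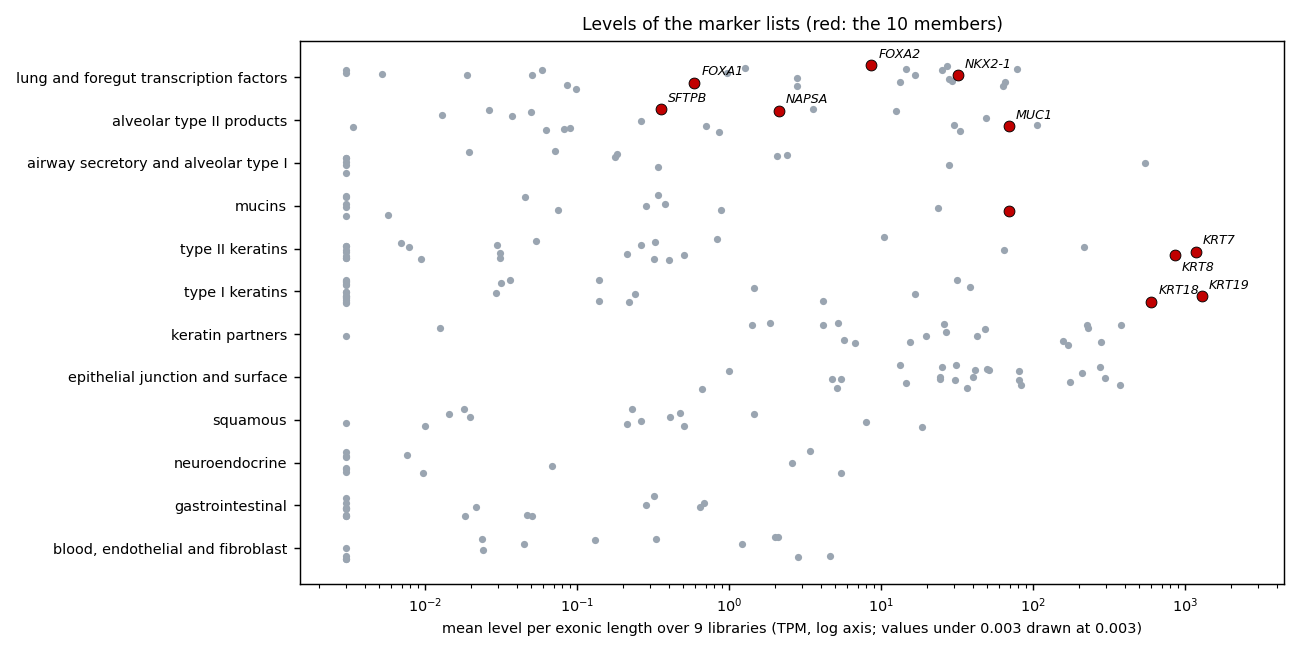
Mean level per exonic length over the 9 libraries (TPM, log axis, values under 0.003 drawn at 0.003) of each gene in 12 marker lists, with the 10 members in red. The 4 keratins lie highest among the members, from 600 to 1288 TPM, and SFTPB and FOXA1 lowest.

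The lineage factors differed widely in level. NKX2-1 (ENSG00000136352, chromosome 14, 36516392 to 36521149, minus strand, GRCh38) had 24.9, 30.2 and 30.7 CPM in vector replicates 1, 2 and 3. It had 31.6, 30.1 and 27.96 CPM with WT and 21.5, 25.5 and 23.0 with NLS Mut. All WT libraries lay above all NLS Mut libraries, and vector replicate 1 lay among the latter. FOXA2 (ENSG00000125798, chromosome 20, 22581005 to 22585455, minus strand) had 4.62, 7.20 and 5.89 CPM with vector, 7.69, 5.82 and 4.39 with WT and 7.03, 6.59 and 5.33 with NLS Mut, so that its groups overlapped throughout. FOXA1 (ENSG00000129514, chromosome 14, 37589984 to 37596059, minus strand) had 17, 23 and 14 counts in the vector libraries, 8, 7 and 25 with WT and 10, 17 and 9 with NLS Mut. Those counts are at most 1.21 CPM, and FOXA1 thus stood far below NKX2-1 in each library. Among the 25 listed transcription factors of lung and foregut, 17 passed the filter. The highest per exonic length were SOX9, a factor of distal lung progenitors, at 77.9 TPM, FOXP4 at 65.6 and TEAD1 at 63.7. With the transcript length TEAD1 led at 116 TPM, ahead of FOXP4 at 58.4 and SOX9 at 42.2.

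Of the lung products, MUC1 was the abundant one. MUC1, a membrane mucin of the apical surface (ENSG00000185499, chromosome 1, 155185824 to 155192916, minus strand), had 101, 95.3 and 96.5 CPM in the vector libraries. It had 83.1, 97.3 and 89.6 CPM with WT and 71.2, 83.9 and 72.5 with NLS Mut. The NLS Mut libraries all lay below the vector libraries, and NLS Mut replicate 2 lay just above WT replicate 1. SFTPB, which encodes surfactant protein B (ENSG00000168878, chromosome 2, 85657314 to 85668741, minus strand), had 23, 4 and 6 counts with vector, 13, 5 and 18 with WT and 5, 1 and 3 with NLS Mut. NAPSA, the aspartic protease napsin A that processes surfactant protein B (ENSG00000131400, chromosome 19, 50358477 to 50365830, minus strand), had 71, 61 and 48 counts, then 44, 63 and 22, then 38, 27 and 46 in the same order of groups. Its value is uncertain, since the pseudogene NAPSB held 256 counts in all, against 420 for NAPSA. The other surfactant genes SFTPA1, SFTPA2, SFTPC and SFTPD had 7, 3, 9 and 7 counts over all 9 libraries together. Of the 20 listed alveolar type II products, 12 passed the filter. The highest of the 20 per exonic length were LPCAT1, an enzyme of surfactant lipid synthesis, at 106 TPM, MUC1, and the lipid transporter ABCA3 at 49.3 TPM. With the transcript length MUC1 (185 TPM) stood above LPCAT1 (94.2 TPM), and CTSH (60.8) above ABCA3 (32.2).

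The keratins took up 0.422% to 0.504% of all counted reads, and KRT7, KRT8, KRT18 and KRT19 held 91.1% to 92.7% of the reads on 54 keratin genes. Of the type II chains, KRT7 (ENSG00000135480, chromosome 12, 52232520 to 52252186, plus strand) had 1216, 1433 and 1451 CPM with vector, 1231, 1229 and 1281 with WT and 1305, 1322 and 1197 with NLS Mut. KRT8 (ENSG00000170421, chromosome 12, 52897187 to 52949954, minus strand) had 1467, 1745 and 1705 CPM, then 1614, 1713 and 1606, then 1448, 1501 and 1491. For both, vector replicate 1 was the lowest of its group by more than the spread of the other vector libraries. The same held for KRT18, KRT19 and NKX2-1. Of the type I chains, KRT18 (ENSG00000111057, chromosome 12, 52948871 to 52952901, plus strand) had 480, 542 and 563 CPM with vector, 527, 549 and 543 with WT and 497, 500 and 490 with NLS Mut. KRT19 (ENSG00000171345, chromosome 17, 41523617 to 41528308, minus strand) had 749, 861 and 872 CPM with vector, 903, 868 and 841 with WT and 712, 770 and 737 with NLS Mut. In KRT8, KRT18 and KRT19 every WT library exceeded every NLS Mut library. The next keratins per exonic length were KRT80 (216 TPM), KRT81 (64.5) and KRT10 (38.6), and with the transcript length KRT17 (35.0) stood above KRT10 (21.0). Of the 26 listed type II and 28 type I keratins, 7 of each passed the filter.

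**Figure D2:**
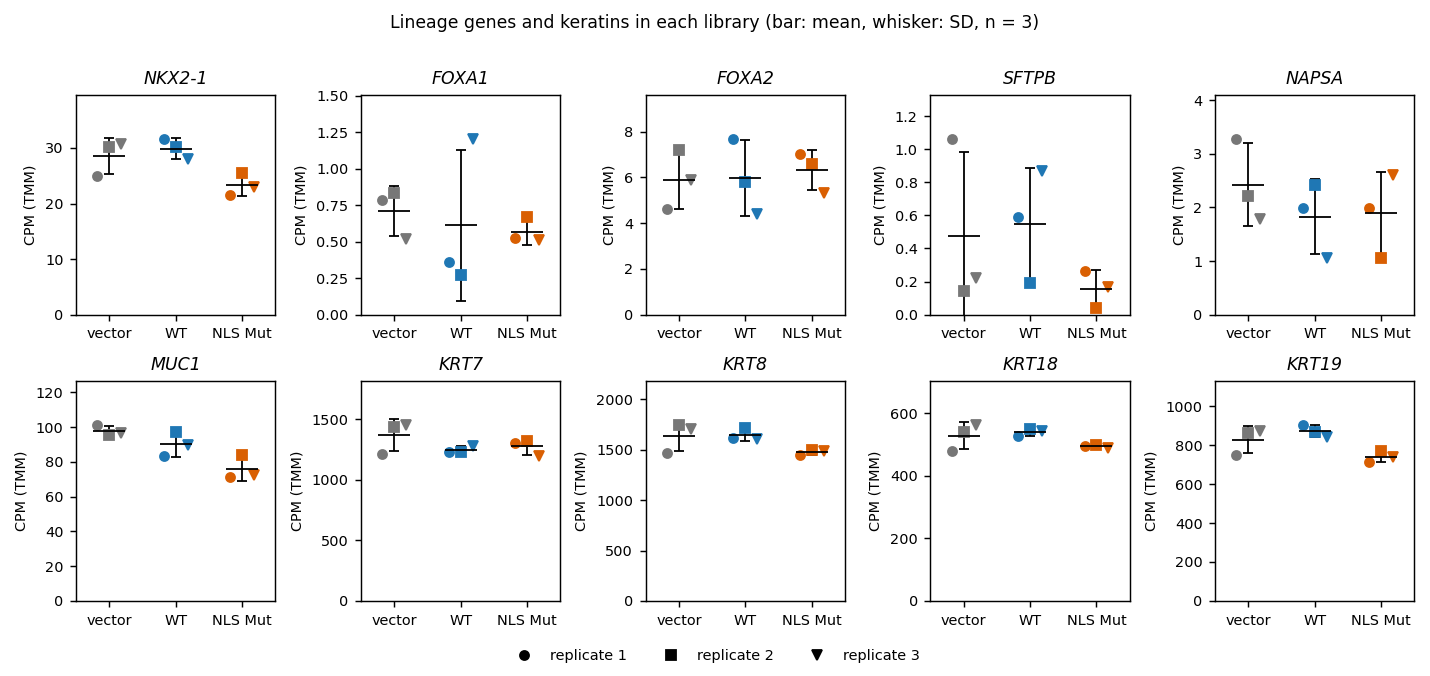
CPM (TMM scaled, linear axes from 0) of each of the 10 members in the 3 libraries of each group, with the mean and SD (n = 3). NKX2-1, KRT8, KRT18 and KRT19 separate WT from NLS Mut, as 17.7% of all genes tested do. MUC1 separates vector from NLS Mut, as 18.1% of all genes do, and FOXA1 and SFTPB stay at or below 1.21 CPM.

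KRT8 and KRT18 lie side by side and share 525 exonic bases on opposite strands. Counting without regard to strand leaves out reads on such stretches, so both levels are too low. Adding the counts of both stranded columns, in which a read there counts once for each gene, raised KRT18 from 108609 to 182584 counts over all libraries and KRT8 from 331707 to 405692. KRT7, which overlaps KRT7-AS over 282 bases and KRT87P over 32 bases, rose from 270536 to 390718, and NAPSA from 420 to 796. NKX2-1, which overlaps NKX2-1-AS1, moved only from 5728 to 5833, and FOXA1, FOXA2, SFTPB, MUC1 and KRT19 did not change. Reads of a gene and of its partner on the other strand cannot be told apart in these counts. Processed copies held few of the counted reads, with 5571 counts on 51 pseudogenes of KRT8 and 722 on 68 of KRT18. Multimapping reads, 6.71% to 9.10% of each library, were left out, so reads shared by a gene and its copies are not seen here.

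Between WT and NLS Mut, KRT19 was the member that passed the test. It was 17.7% higher with WT, at 871 ± 30.9 CPM (SD, n = 3) against 740 ± 29.1 (SD, n = 3). Its log2 fold change was 0.23 (standard error 0.05, 95% interval 0.12 to 0.35, adjusted p = 0.044, edgeR's quasi-likelihood test). This is 1 of 10 members called higher, where 0.3% of all genes tested were, and none was called lower, where 0.204% were (0.504% in either direction). KRT19 passed in each of the 10 alternatives that kept all libraries, with log2 fold changes of 0.23 to 0.25. It passed in only 4 of the 9 fits that left out a library. The call was lost without WT replicate 1 (0.21, adjusted p = 0.16) or 3 (0.27, adjusted p = 0.074) and without NLS Mut replicate 1 (0.22, adjusted p = 0.23), 2 (0.27, adjusted p = 0.096) or 3 (0.24, adjusted p = 0.17), all by edgeR.

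The other members did not pass in this comparison. NKX2-1 had a log2 fold change of 0.36 (95% interval 0.13 to 0.58, adjusted p = 0.14, edgeR), at 29.9 ± 1.85 against 23.3 ± 2.01 CPM (SD, n = 3). MUC1 was at 90.0 ± 7.13 and 75.9 ± 6.97 CPM (SD, n = 3), with 0.24 on the log2 scale (interval 0.09 to 0.40, adjusted p = 0.15, edgeR). KRT8 had 0.15 (interval 0.05 to 0.26, adjusted p = 0.20, edgeR) and KRT18 0.12 (interval 0.01 to 0.24, adjusted p = 0.36, edgeR). For KRT7 the interval was -0.14 to 0.08 around -0.03. It was wide for FOXA2 (-0.52 to 0.35), NAPSA (-0.82 to 0.78), FOXA1 (-1.31 to 1.47) and SFTPB (-0.17 to 3.79), whose counts cannot show a moderate difference at this depth. The groups did not overlap in 4 of the 10 members, NKX2-1, KRT8, KRT18 and KRT19, where 17.7% of all genes tested did not. The members' log2 fold changes were positive in 7 and negative in 3, where 9112 and 9541 of all genes tested were. Their median was 0.14, against -0.01 over all genes. With the correction for GC content and length, KRT8 (0.14, adjusted p = 0.030) and NKX2-1 (0.35, adjusted p = 0.045) passed beside KRT19 by edgeR, when 1.28% of all genes were called higher. With the replicate block added to the correction, MUC1 passed too (0.24, adjusted p = 0.041, edgeR), when 1.5% were called higher. In a fit of only these 2 groups, KRT19 and KRT8 passed (1% of all genes higher). Without vector replicate 1, which belongs to neither group but bears on the shared spread and on which genes pass the filter (19857 tested), KRT19 (adjusted p = 1.8e-04), KRT8 (0.16, adjusted p = 0.0055), MUC1 (0.25, adjusted p = 0.045) and NKX2-1 (0.36, adjusted p = 0.050) passed by edgeR, when 1.02% of all genes were called higher.

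No member passed the test in WT against vector. With edgeR, 0 of 10 were called, where 0.558% of all genes were (0.214% higher and 0.343% lower). Of the 10, only KRT7 had an unadjusted p under 0.05, as 11.7% of all genes did. DESeq2, which called 2.58% of the genes it adjusted, called no member. It gave no adjusted p for FOXA1, FOXA2, SFTPB and NAPSA, which therefore could not be called. KRT7 was at 1247 ± 29.7 CPM with WT and 1367 ± 131 with vector (SD, n = 3), with a log2 fold change of -0.13 (interval -0.24 to -0.02, adjusted p = 0.32, edgeR). The intervals were -0.10 to 0.11 for KRT8, -0.08 to 0.14 for KRT18, -0.04 to 0.18 for KRT19, -0.27 to 0.04 for MUC1 and -0.16 to 0.28 for NKX2-1. The groups were separate in 0 of 10 members and in 13.1% of all genes. The median over the members was 0.01, against 0.00 over all genes. Leaving out vector replicate 1 and the GC correction each moved a single member past the threshold. Without vector replicate 1, KRT7 was lower with WT (-0.21, adjusted p = 9.2e-04, edgeR), when 3.68% of all genes were called lower. With the GC correction, KRT19 was higher (0.20, adjusted p = 0.010, edgeR), when 0.66% of all genes were called higher (0.775% with the replicate block added, where KRT19 also passed).

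With NLS Mut, MUC1 fell relative to vector. It was at 75.9 ± 6.97 CPM against 97.7 ± 3.05 (SD, n = 3), 22.2% lower, with a log2 fold change of -0.36 (standard error 0.08, 95% interval -0.52 to -0.21, adjusted p = 0.017, edgeR's quasi-likelihood test). This is 1 of 10 members called lower, where 0.499% of all genes were, and 0 of 10 called higher, where 0.295% were (0.793% in either direction). MUC1 was also the one member whose groups did not overlap, against 18.1% of all genes. The call held in each of the 10 alternatives that kept all libraries, with -0.28 (adjusted p = 0.025, edgeR) after the GC correction, when 0.55% of all genes were called lower, and in 7 of the 9 fits that left out a library. It was lost without NLS Mut replicate 1 (-0.32, adjusted p = 0.13) or 3 (-0.34, adjusted p = 0.13), by edgeR.

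The keratins and NKX2-1 lay lower with NLS Mut than with vector without passing the test. The log2 fold changes were -0.29 for NKX2-1 (adjusted p = 0.23), -0.16 for KRT19 (adjusted p = 0.18), -0.15 for KRT8 (adjusted p = 0.20), -0.10 for KRT7 (adjusted p = 0.48) and -0.09 for KRT18 (adjusted p = 0.52), by edgeR. Signs were negative in 9 of 10 members and in 9391 of 18653 genes tested. The members' median was -0.23, against 0.00 over all genes. The 9 include FOXA1 (-0.32), SFTPB (-1.59) and NAPSA (-0.37), whose low counts gave wide intervals across 0. The values of the keratins and NKX2-1 turn on vector replicate 1. Without it, 6 members were called lower by edgeR, when 2.66% of all genes were, and 1 was without vector replicate 2 or without 3. The 6 were KRT8 (-0.23, adjusted p = 1.6e-04), KRT19 (-0.24, adjusted p = 6.8e-04), KRT7 (-0.18, adjusted p = 0.0046), MUC1 (-0.34, adjusted p = 0.0047), KRT18 (-0.16, adjusted p = 0.021) and NKX2-1 (-0.39, adjusted p = 0.032). After the GC correction, which kept all libraries, the same comparison gave -0.16 for NKX2-1, -0.07 for KRT8, -0.04 for KRT19, -0.02 for KRT18 and -0.01 for KRT7, and none of these 5 passed.

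**Figure D3:**
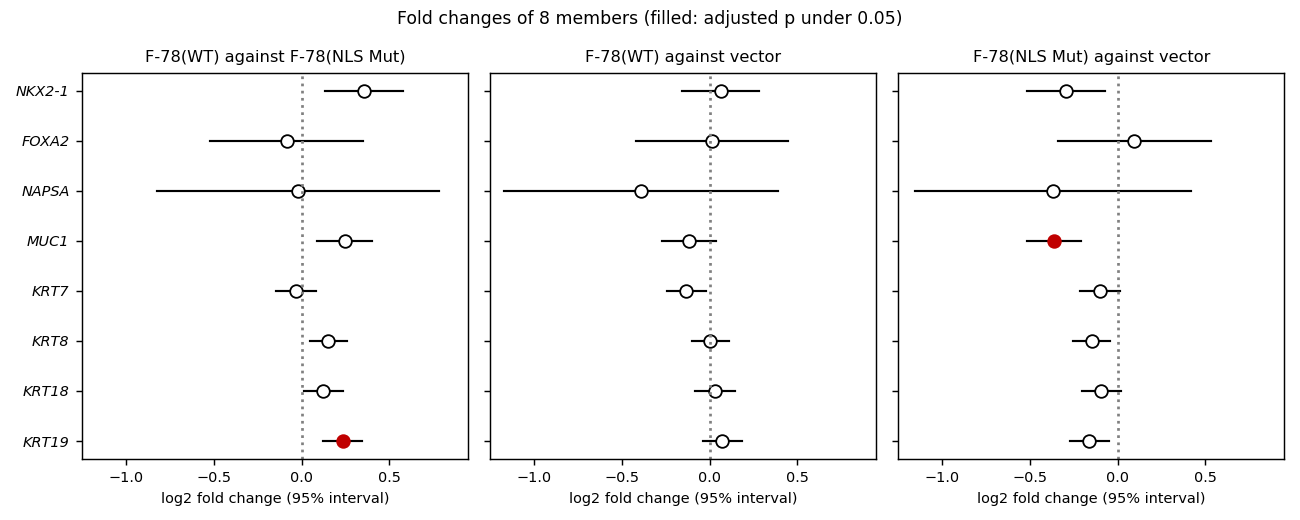
Log2 fold changes (points, edgeR) with 95% intervals (bars) of the members other than FOXA1 and SFTPB in the 3 comparisons, filled where the adjusted p was under 0.05. KRT19 is filled at 0.23 in WT against NLS Mut, MUC1 at -0.36 in NLS Mut against vector, and no member in WT against vector.

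**Figure D4:**
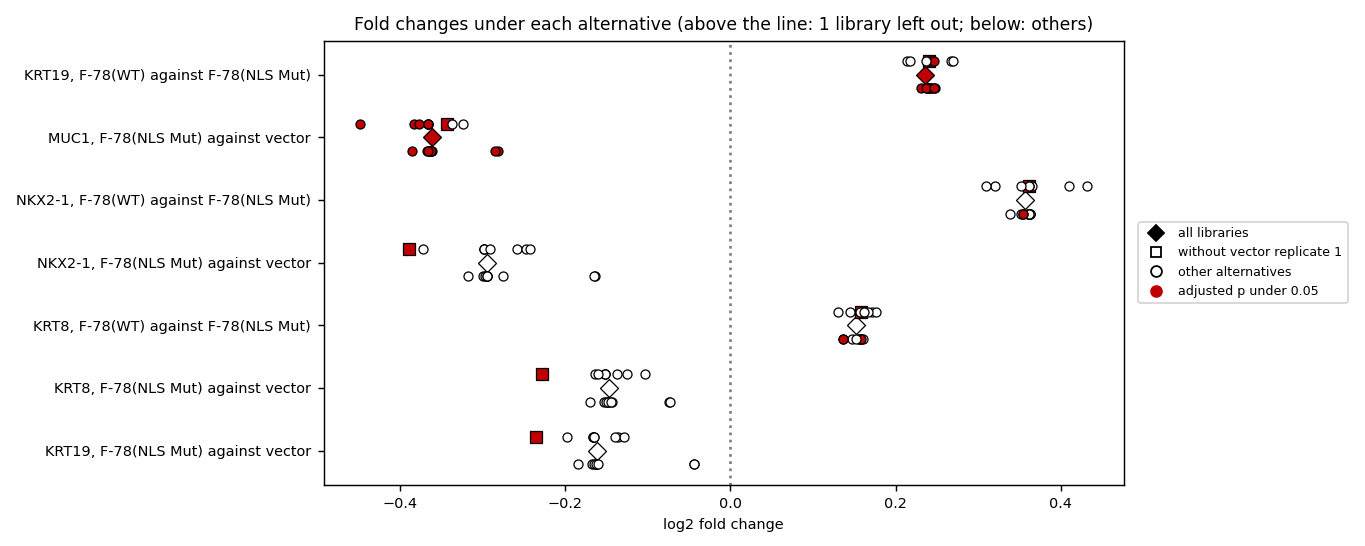
Log2 fold changes of 7 member comparisons with all libraries (diamonds), without vector replicate 1 (squares) and under the other alternatives (circles; above each line 1 library left out, below it other settings), red where the adjusted p was under 0.05. In each fit drawn, MUC1 in NLS Mut against vector stays below 0 and KRT19 in WT against NLS Mut above 0, while NKX2-1, KRT8 and KRT19 in NLS Mut against vector turn red with vector replicate 1 left out.

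Ratios between keratins within a library do not depend on scaling. The log2 ratio of KRT8 to KRT18 counts lay between 1.54 and 1.69 in all 9 libraries. Its differences between groups were 0.03 for WT against NLS Mut (p = 0.4), -0.03 for WT against vector (p = 0.6) and -0.05 for NLS Mut against vector (p = 0.2, two-sided exact permutation tests). The ratio of KRT7 to KRT19 was lower with WT, at 0.52 ± 0.08 on the log2 scale (SD, n = 3), than with vector, at 0.72 ± 0.02, or NLS Mut, at 0.78 ± 0.09. The WT libraries, from 0.447 to 0.607, lay below all others, which began at 0.699. The difference was -0.27 against NLS Mut and -0.20 against vector, each with p = 0.1 by the two-sided exact permutation test, the smallest that 3 against 3 libraries allow. Adjusted over the 6 ratio tests, both gave p = 0.3 by this exact test, so neither can pass in this design. NLS Mut differed from vector by 0.06 (exact permutation p = 0.3). The level of both ratios depends on the counts used. With the summed strands KRT8 to KRT18 lay between 1.10 and 1.21, and KRT7 to KRT19 between 0.96 and 1.42. The differences in KRT7 to KRT19 were then -0.28 for WT against NLS Mut, -0.22 for WT against vector and 0.07 for NLS Mut against vector.

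**Figure D5:**
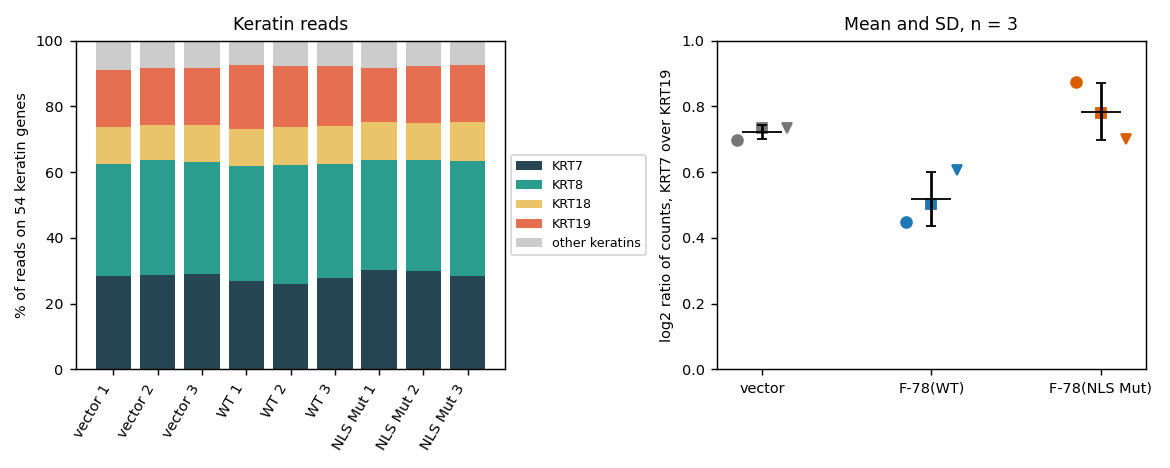
Left, the share in percent of reads on 54 keratin genes that KRT7, KRT8, KRT18, KRT19 and the other keratins took in each library. Right, the log2 ratio of KRT7 to KRT19 counts in each library with the mean and SD (n = 3), which lies at 0.447 to 0.607 with WT and at 0.699 or above elsewhere.

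The genes with which the members work were followed in the same fit, as 12 lists. Epithelial junction and surface genes passed the filter in 25 of 25 cases, among them EPCAM at 296 TPM and CLDN4 at 274 TPM, and the labelled cell type is epithelial. Of these, 2 were called higher in WT than in NLS Mut (0.3% of all genes) and 0 lower, and the same 2 were lower in NLS Mut than in vector (0.499% of all genes). TJP3, a tight junction scaffold, was at 19.5 CPM with vector, 18.4 with WT and 11.9 with NLS Mut, with log2 fold changes of 0.63 (adjusted p = 0.013) and -0.72 (adjusted p = 0.0032) in these comparisons by edgeR. CDH1, which encodes E-cadherin, was at 307, 311 and 258 CPM, with 0.27 (adjusted p = 0.036) and -0.25 (adjusted p = 0.044) by edgeR. The list's median was 0.12 between WT and NLS Mut, -0.03 for WT against vector and -0.17 for NLS Mut against vector, where the medians of all genes were -0.01, 0.00 and 0.00. Among 18 tested partners of keratin filaments, PPL, which encodes the desmosomal linker periplakin, was at 108, 109 and 83.6 CPM in the order vector, WT, NLS Mut. It was called in the same 2 comparisons (0.38, adjusted p = 0.012, and -0.37, adjusted p = 0.016, edgeR). These comparisons share the NLS Mut libraries. Without NLS Mut replicate 2, TJP3 (0.58 and -0.66, adjusted p = 0.15 and 0.056), CDH1 (0.29 and -0.27, adjusted p = 0.15 and 0.17) and PPL (0.34 and -0.33, adjusted p = 0.15 and 0.16) passed in neither of them by edgeR. Between WT and NLS Mut, each of the 3 also lost its call without WT replicate 1, PPL and CDH1 without NLS Mut replicate 1, TJP3 and CDH1 without NLS Mut replicate 3, and CDH1 without WT replicate 3. In NLS Mut against vector, PPL and CDH1 also lost theirs without NLS Mut replicate 1, and CDH1, called in 3 of the 9 fits, without NLS Mut replicate 3, WT replicate 3 or vector replicate 2 or 3.

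Other keratins and mucins moved in few cases. KRT81 (-0.40, adjusted p = 0.045) and KRT16 (-0.65, adjusted p = 0.032) were lower in NLS Mut than in vector by edgeR, and after the GC correction neither passed (-0.25, adjusted p = 0.22, and -0.54, adjusted p = 0.060). They were 1 of 7 tested type II and 1 of 7 type I keratins in that comparison, where 0.499% of all genes were called lower. Of 6 tested mucins, MUC16, which carries the CA125 antigen, was higher in WT than in NLS Mut (0.43, adjusted p = 0.046, edgeR), as 0.3% of all genes were. MUC16 did not pass with DESeq2 (adjusted p = 0.22) or with the summed strands (adjusted p = 0.051, edgeR). Of the 17 tested transcription factors, ELF3, an epithelial ETS factor, was called lower in NLS Mut than in vector, as 0.499% of all genes were. ELF3 was at 41.1 against 52.6 CPM (-0.36, adjusted p = 0.028, edgeR), and no other of the 17 was called in any comparison. MUC1 was the only one of 12 tested alveolar type II products called in any comparison. Among 5 tested airway secretory and alveolar type I genes, CAV1, a caveolin abundant in alveolar type I cells, was at 532 CPM with vector. It was higher with WT at 652 (0.29, adjusted p = 0.0020) and with NLS Mut at 620 (0.22, adjusted p = 0.021), by edgeR. Of all genes, 0.214% were called higher with WT and 0.295% with NLS Mut than with vector. CAV1 in WT against vector was called in 9 of 9 fits that left out a library. CAV1, ELF3 and KRT16 in NLS Mut against vector were called in 4 of these 9 and were lost without vector replicate 2 or 3 or any NLS Mut library, with adjusted p up to 0.15, 0.21 and 0.26. KRT81 was lost without vector replicate 2 or 3, WT replicate 3 or NLS Mut replicate 2 or 3 (adjusted p up to 0.33), and MUC16 without WT replicate 1 or 3 or any NLS Mut library (adjusted p up to 0.30), by edgeR.

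Most markers of other lineages were low or absent, with vimentin and the squamous markers S100A2 and TP63 as exceptions. The mesenchymal filament gene VIM, listed as a partner of keratins, was at 381 TPM per exonic length, below KRT18 at 600 (569 against 668 with the transcript length). Of 14 squamous markers, 7 passed the filter, and the defining keratin KRT5 was at 0.306 CPM. TP63 was at 16.0 CPM, against 7.84 for S100A2 and 6.06 for FOXA2. Per exonic length TP63 stood at 7.97 TPM, and with the transcript length at 15.8, against 5.03 for FOXA2. The highest of the squamous list per exonic length was S100A2 at 18.5 TPM, above FOXA2 at 8.62 and below NKX2-1 at 31.9. With the transcript length S100A2 stood at 25.0 TPM and NKX2-1 at 24.1. The sum of this list was 26.1 to 28.5 CPM with vector, 26.2 to 30.9 with WT and 25.0 to 26.8 with NLS Mut. Neuroendocrine markers summed to at most 11.5 CPM and gastrointestinal markers to at most 1.70 CPM in any library, with CDX2 at 0 counts. Blood, endothelial and fibroblast markers summed to 18.5 to 19.1, 22.4 to 24.1 and 17.1 to 19.97 CPM in vector, WT and NLS Mut, with PTPRC at 12 counts over all libraries. No gene of these 4 lists was called in any comparison by edgeR, with 7, 3, 2 and 7 genes tested. In bulk RNA, fewer cells of a type and less RNA per cell cannot be told apart.

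The profiles of 10070 genes that averaged 10 CPM or more were compared with those of the called members. The profiles most like that of MUC1 over the 9 libraries were those of FAHD2A, PNPLA4 and SLC16A5, with root mean square differences of 0.062, 0.069 and 0.076 in centred log2 CPM. Those most like KRT19 were ANXA6 (0.049), SH3BGRL3 (0.050) and SSH3 (0.050).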

How the data were processed

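RNA-Seq of H1975 cells gave 9 libraries, 3 per group, grouped by the titles and genotype labels. For each library the authors deposited unnormalized read counts of all genes, made without strand and for each strand, and the submitters' processing notes name STAR 2.7.9a, DESeq2 1.36.0 and GRCh38.p14. The annotation release is not given in the sources used here, and the main text states no test for the RNA-Seq. The counts without strand were used, since 50.6% to 51.9% of the stranded counts lay on the forward strand. The 4 summary lines (unmapped, multimapping, outside genes, ambiguous) took 27.6% to 30.7% of the reads and were left out. Each library had 17671055 to 27476298 counted reads, and intervals on low counts are wide. Symbols matched 61445 of 61544 identifiers, and GENCODE release 29 gave coordinates and lengths for 58298.

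With edgeR 4.0.16 in R 4.3.3, genes passing filterByExpr (18653) were scaled by TMM (factors 0.989 to 1.02) and fitted by quasi-likelihood over all 9 libraries with 1 coefficient per group. The median biological coefficient of variation was 11.2%. Standard errors were obtained as the size of the log2 fold change over the root of F. P-values were adjusted by Benjamini-Hochberg over all genes tested, and a gene was called under 0.05. Keratin ratios of counts plus 0.5 were compared by exact permutation in scipy 1.17.1. Alternatives were DESeq2 1.42.0, its size factors, library size alone, no filter, a mean of at least 1 CPM, the summed strands, only the 2 groups compared, a replicate block, a loess correction (span 0.3) for GC content and length, both together, and leaving out each library. The fit was tested on simulated data. Figures used matplotlib 3.10.9.

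The members and lists were chosen with earlier results of these data known. Named genes are the 10 members, the genes of each list that were called or had its highest levels per length, copies and overlapping genes of members, the 3 profiles most like each called member, and HSPA5, except 1 item that is not reported here. The surfactant genes, KRT5, KRT17, CTSH, TP63, CDX2 and PTPRC were named after their values were seen.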

Additional observations from a re-analysis of the deposited data

How the results depend on the processing

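Of the members, 1 was called between WT and NLS Mut in the report (0.3% of all genes higher) and 2 with only the 2 groups compared (1%). With the correction for GC content and length 3 were called (1.28%), and 4 with the replicate block added (1.5%). Leaving out a library gave 0 to 4, the 4 without vector replicate 1 (1.02%). For WT against vector, 0 were called (0.558% of all genes in either direction). With the GC correction 1 was called, without and with the block (0.66% and 0.775% of all genes higher). Leaving out a library gave 0 to 1, the 1 without vector replicate 1 (3.68% of all genes lower). For NLS Mut against vector, 1 was called (0.499% of all genes lower), and 0 to 6 without a library, the 6 without vector replicate 1 (2.66%). Replicate numbers do not mark a stated batch, and same-numbered libraries deviated together with correlations of -0.03 to 0.18, so they were not treated as pairs. The replicate block alone changed no call of a member. It turned the sign of FOXA1 between WT and NLS Mut to -0.028 (-0.021 with the GC correction) and of FOXA2 in WT against vector to -0.012. Other signs that turned belonged to uncalled values: NAPSA between WT and NLS Mut with the summed strands (0.11), and FOXA2 and KRT8 in WT against vector with library size alone (-0.017 and -0.023). The cause was not tested.

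Leaving out a library gave ranges across 0, on the log2 scale, of -0.84 to 0.46 for FOXA1, -0.30 to 0.10 for FOXA2 and -0.32 to 0.29 for NAPSA between WT and NLS Mut. Against vector they were, with WT, -0.028 to 0.11 for NKX2-1, -1.16 to 0.14 for FOXA1, -0.21 to 0.19 for FOXA2, -0.27 to 1.54 for SFTPB, -0.071 to 0.056 for KRT8 and -0.035 to 0.076 for KRT18, and with NLS Mut -0.055 to 0.26 for FOXA2. Of 790 values under alternatives, 692 kept direction and call, 57 lost and 17 gained the call, and 24 turned sign. Over all genes, the 94 calls between WT and NLS Mut became 85 to 568 with all libraries (DESeq2 292, replicate block 212) and 27 to 388 without a library. The 104 for WT against vector became 26 to 289 (261, 232) and 19 to 1256, and the 148 for NLS Mut against vector became 143 to 416 (416, 230) and 33 to 1002. Each highest count without a library was reached without vector replicate 1.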
